A study of Mus musculus with 6 samples.

Results

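The keratin-associated protein genes of the mouse were examined in ear skin at the site of a tick bite. They were taken as every gene of the deposited table whose symbol begins with Krtap, which gave 52 of 15667 genes. RNA-seq was carried out on the ears of 6 female mice 7 to 8 weeks old, and 10 Ixodes scapularis nymphs had been placed on each mouse 48 h before a skin punch was taken where they fed. The WT group (Adipo+/+, n = 3) had an intact adiponectin gene, and the KO group (Adipo-/-, n = 3) were littermates homozygous for the tm1Chan null allele of Adipoq. The allele is carried in every cell on a mixed B6;129 background, and every animal of both groups was bitten. The comparison asked what the lack of adiponectin, a hormone of fat cells, did to the skin response, and unbitten skin was not analysed here.

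Hair is built from keratin filaments held in a matrix of keratin-associated proteins. These small proteins are made late in hair formation, in the cortex and cuticle of the growing hair, and they join the filaments through disulfide bonds of their cysteines. They fall into high sulfur, ultra-high sulfur and high glycine-tyrosine classes. A hair follicle passes through growth, regression and rest, and the genes are known to be transcribed during growth.

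Values were counts per 1000000 reads (CPM). The lowest values of each library were steps of 1 read, from which the depth was worked out as 3403627 to 6591475 reads, so that 3 reads, taken as the limit of detection in a library, came to between 0.455 and 0.881 CPM. Adipoq was at 30.5, 63.7 and 49.6 CPM in WT 1, WT 2 and WT 3 and at 0, 0.560 and 0 CPM in KO 1, KO 2 and KO 3, as the labels state (log2 fold change -6.17, SE 0.41, adjusted p = 0.00322, limma). No pair of libraries was a duplicate. WT 3 stood apart from WT 1 and WT 2 in the genes described here, and results are therefore given with and without it. Nothing in the labels sets it apart. In whole skin, fewer cells of a type and less RNA per cell cannot be told apart.

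All 52 genes have a single exon, and they lie in clusters on chromosomes 7, 10, 11 and 16, with 1 gene alone on chromosome 1 (GRCm38). Chromosome 11 holds 22 of them between positions 99550132 and 99993994, within the locus of the type I keratins, and chromosome 16 holds 21 between 88610709 and 89571183. The latter lie 65.5 Mb from Adipoq, which is on the same chromosome. By family number, 22 were high sulfur, 17 ultra-high sulfur and 13 high glycine-tyrosine genes. The first 90 coding bases of an abundant gene of each class show what the names mean (GENCODE M21, GRCm38). Cysteine codons are in capitals in Krtap3-1 (high sulfur, chr11:99566494-99566583, minus strand) and Krtap4-1 (ultra-high sulfur, chr11:99628093-99628182, minus strand), and glycine and tyrosine codons in Krtap8-1 (high glycine-tyrosine, chr16:89487818-89487907, minus strand).
Krtap3-1: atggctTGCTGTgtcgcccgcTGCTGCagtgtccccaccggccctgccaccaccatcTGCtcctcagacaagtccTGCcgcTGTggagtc
Krtap4-1: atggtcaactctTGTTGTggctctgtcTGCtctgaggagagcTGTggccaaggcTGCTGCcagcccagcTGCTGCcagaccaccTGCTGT
Krtap8-1: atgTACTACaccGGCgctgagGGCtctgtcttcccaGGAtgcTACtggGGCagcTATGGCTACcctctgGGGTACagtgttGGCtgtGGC

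Of these 30 codons, 7 are for cysteine in Krtap3-1 and 10 in Krtap4-1, and 14 are for glycine or tyrosine in Krtap8-1. Over whole coding sequences, cysteine took a median of 20.3% of codons in the high sulfur genes (4.0% to 42.8%) and 37.7% in the ultra-high sulfur genes (27.2% to 41.5%). Glycine and tyrosine together took a median of 62.9% in the high glycine-tyrosine genes (29.9% to 69.2%). Some genes did not have the composition of the class that their number gives. Krtap16-3 is counted as high sulfur but had 59.3% glycine and tyrosine codons and lies next to the Krtap19 genes, Krtap28-13 had 42.8% cysteine codons, and Krtap15 had only 4.0%. The classes by number were kept.

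Promoters were matched in RefSeq (GRCm38.p6) for 47 of the 52 genes. The letters TATAAA, on either strand of the 300 bases around the start, were present in 38 of these 47 promoters (80.9%) against 13.6% of all 32851 promoters. With the motif on the gene's own strand and beginning 20 to 40 bases before the start, the shares were 59.6% and 1.99%. By class, 93.8% of ultra-high sulfur, 78.9% of high sulfur and 66.7% of high glycine-tyrosine promoters held TATAAA in the whole window. The letters CTTTGA, the core bound by Lef1 and its relatives in follicle cells, were present in 29.8% of Krtap promoters against 16% of all promoters, in 52.6% of the high sulfur and 6.25% of the ultra-high sulfur promoters. The promoters are those of related copies and are not independent of each other. The 100 bases before the start follow for the most abundant gene with a promoter in each class, for Krtap3-2, whose levels differed from those of the other genes, and for Krtap19-3, of a subfamily whose levels also did. TATAAA is in capitals, and all are on the minus strand, at chr16:89487953-89488052 for Krtap8-1, chr11:99566631-99566730 for Krtap3-1, chr11:99628240-99628339 for Krtap4-1, chr11:99556854-99556953 for Krtap3-2 and chr16:88878039-88878138 for Krtap19-3.
Krtap8-1: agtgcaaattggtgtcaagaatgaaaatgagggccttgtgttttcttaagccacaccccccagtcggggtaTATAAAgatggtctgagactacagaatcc
Krtap3-1: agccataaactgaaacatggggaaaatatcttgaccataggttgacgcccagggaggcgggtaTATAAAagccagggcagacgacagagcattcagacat
Krtap4-1: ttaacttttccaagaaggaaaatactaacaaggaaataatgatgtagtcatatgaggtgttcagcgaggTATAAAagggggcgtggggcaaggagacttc
Krtap3-2: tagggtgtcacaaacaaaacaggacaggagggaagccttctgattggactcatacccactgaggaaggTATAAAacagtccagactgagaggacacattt
Krtap19-3: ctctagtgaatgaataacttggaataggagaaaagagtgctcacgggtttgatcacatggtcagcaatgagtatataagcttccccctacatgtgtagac

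The motif begins 29 bases before the start in Krtap8-1, 37 in Krtap3-1, 31 in Krtap4-1 and 32 in Krtap3-2. Krtap3-2 thus has it at about the place where Krtap3-1 and Krtap4-1 do. The window of Krtap19-3 does not hold these exact letters, but it holds the similar TATATAAG at about the same place. Only the exact letters TATAAA were searched for, so their absence does not show that such an element is lacking. No TATAAA was found for Krtap15 either, whose bases are not shown.

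The family as a whole was near 0 in WT 1 and WT 2, was abundant in WT 3 and was at intermediate levels in all 3 KO mice. Summed over the 52 genes, it reached 7.75, 13.6 and 4221 CPM in WT 1, WT 2 and WT 3, from 32, 67 and 25601 reads. In KO 1, KO 2 and KO 3 it reached 259, 1416 and 135 CPM, from 1707, 5052 and 460 reads. The KO sums thus lay between the second and the highest WT sum, and the groups overlapped. The WT sum was 1414 ± 2431 CPM (SD, n = 3) and the KO sum was 603 ± 706 CPM (SD, n = 3), both with an SD larger than the mean. In WT 3 the family took 0.422% of all reads.

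Gene by gene the order was much the same. WT 3 was the highest library for 52 of 52 genes, and all 3 KO values lay between the lowest and the highest WT value for 52 of 52. KO 2 was above KO 1 and KO 3 for 45 genes, KO 1 was above KO 3 for 41, and the full order WT 3, KO 2, KO 1, KO 3 held for 40. The genes are measured in the same libraries and are not replicates, so these counts describe 6 mice. Listed at 0 were 49 and 50 of the genes in WT 1 and WT 2, none in WT 3, and 5, 4 and 7 in KO 1, KO 2 and KO 3. The median gene was at 0, 0 and 47.4 CPM in the WT libraries and at 2.43, 15.6 and 1.47 CPM in the KO libraries.

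**Figure D1:**
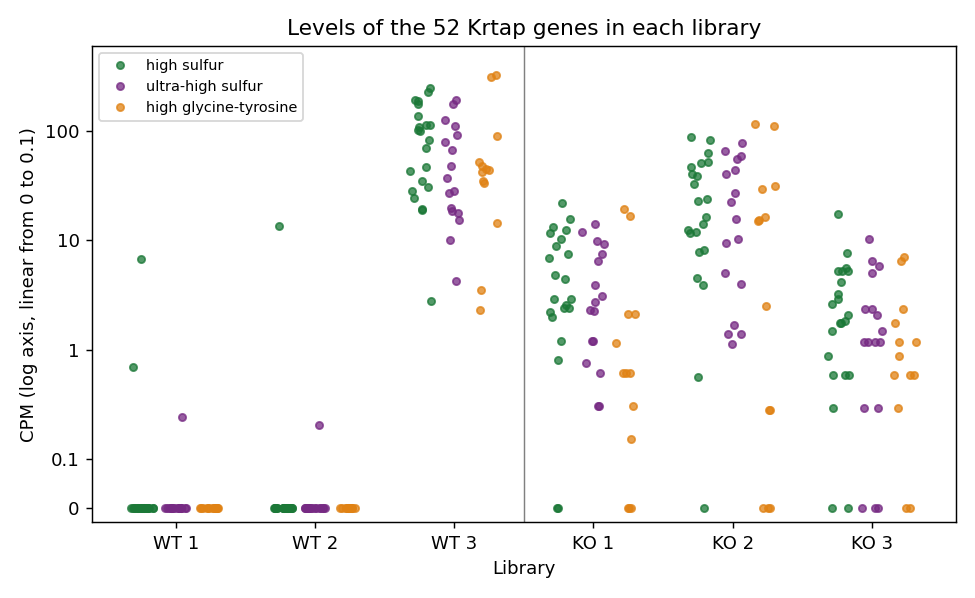
Level of each of the 52 Krtap genes (points, coloured by class) in each of the 3 WT and 3 KO libraries, in CPM on a log axis that is linear from 0 to 0.1. Nearly all points lie at 0 in WT 1 and WT 2, WT 3 has the highest points (up to 323 CPM), and KO 2 lies above KO 1 and KO 3.

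The most abundant genes came from every class. Krtap7-1 (chr16:89507703-89508323), a high glycine-tyrosine gene, was at 0, 0 and 323 CPM in the WT libraries and at 19.4, 112 and 7.05 CPM in the KO libraries. Its neighbour Krtap8-1, of the same class, was at 0, 0 and 309 CPM in WT mice and at 16.8, 116 and 6.46 CPM in KO. In each case KO 2 stood above the other KO libraries, and the WT values were on either side of all KO values. Per kb of transcript, WT 3 had 534 CPM of Krtap8-1, 521 of Krtap7-1, 414 of Krtap3-1 and 270 of Krtap15, which were the 4 highest levels.

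Among the high sulfur genes, Krtap3-1 (chr11:99566027-99566630) was at 0, 0 and 250 CPM in WT mice and 13.4, 88.8 and 5.58 CPM in KO. Krtap15 was at 0, 0 and 226 CPM in WT mice and 8.80, 22.7 and 5.29 CPM in KO. Krtap1-4 was at 0, 0 and 176 CPM in WT mice and 15.6, 63.6 and 7.64 CPM in KO. These genes had the same order of libraries, but KO 2 was nearer to KO 1 for Krtap15 than for the other 2 genes.

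Among the ultra-high sulfur genes, of which the Krtap4 family is the largest here with 8 members, Krtap4-1 (chr11:99627229-99628239) was at 0, 0 and 191 CPM in WT mice and at 14.1, 78.2 and 10.3 CPM in KO. Krtap4-7 was at 0, 0 and 175 CPM in WT mice and 12.0, 65.0 and 5.88 CPM in KO. Krtap4-2 and Krtap4-16 were at 0 in WT 1 and WT 2. In WT 3 they reached 125 and 110 CPM, and KO 2 had 58.6 and 55.2 CPM of them. All 4 are on chromosome 11, and none of their groups separated.

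The smaller clusters followed. Krtap28-13, alone on chromosome 1, was at 0, 0 and 43.2 CPM in WT mice and 2.88, 12.1 and 0.588 CPM in KO. On chromosome 7, Krtap5-5, of a family known from the hair cuticle, was at 0, 0 and 27.0 CPM in WT mice and 2.28, 9.53 and 0.294 CPM in KO, and Krtap10-10 on chromosome 10 was at 0, 0 and 69.7 CPM in WT mice and 2.43, 24.1 and 1.47 CPM in KO. The KO 3 value of Krtap5-5 was 1 read. The lowest mean levels were those of Krtap27-1 and Krtap19-4, with 17 and 14 reads in WT 3 and at most 1 read in any other library.

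**Figure D2:**
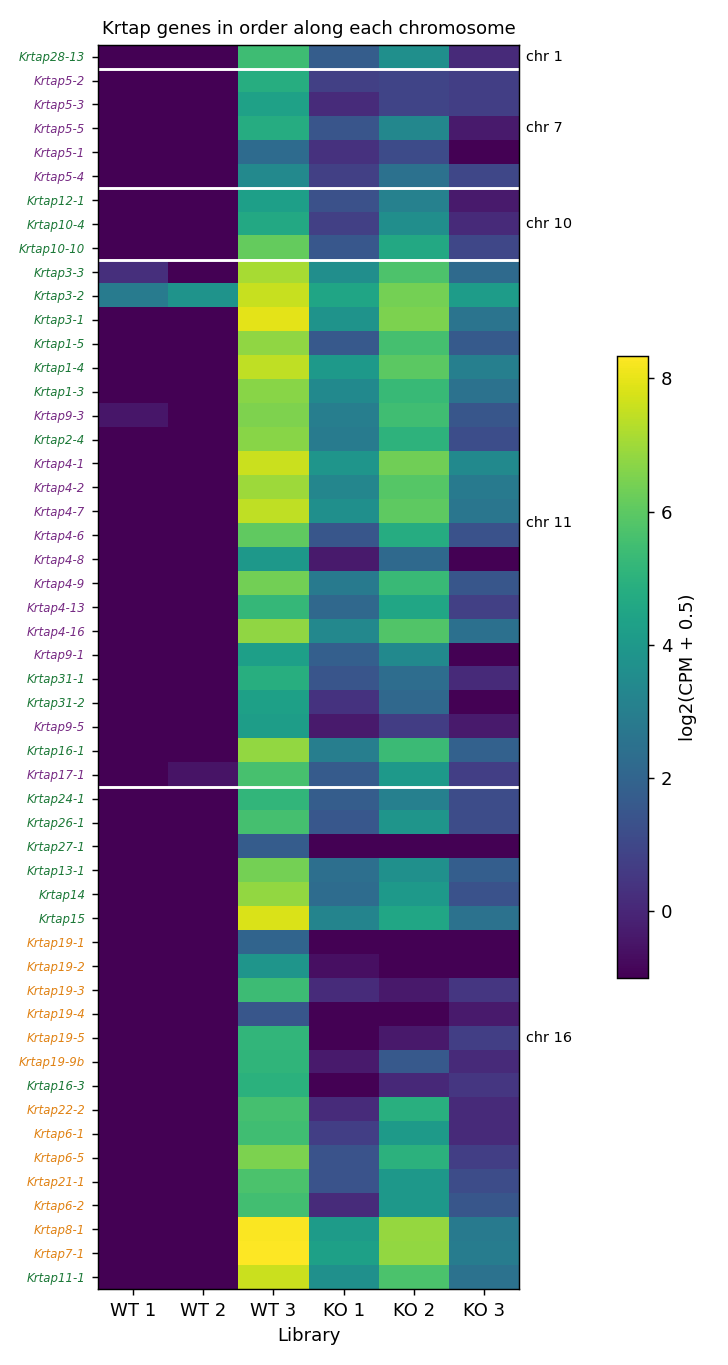
Level of each Krtap gene (rows, in order along chromosomes 1, 7, 10, 11 and 16, names coloured by class as green for high sulfur, purple for ultra-high sulfur and orange for high glycine-tyrosine) in the 6 libraries (columns), as log2(CPM + 0.5). Krtap3-2 is the row with colour in WT 1 and WT 2, and the Krtap19 rows and Krtap16-3 are dark in all 3 KO libraries.

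Krtap3-2 was the exception to the absence of the family from WT 1 and WT 2. It was at 6.81, 13.4 and 189 CPM in WT mice and at 22, 83.3 and 17.3 CPM in KO, from 28 and 66 reads in WT 1 and WT 2, and no other Krtap gene had 3 or more reads in every library. Without it, the family sums of WT 1 and WT 2 fell to 0.940 and 0.203 CPM, from 4 reads and 1 read. Those reads belonged to Krtap3-3 and Krtap9-3 in WT 1 and to Krtap17-1 in WT 2. Krtap3-3 shares stretches of 50 identical bases with Krtap3-1 or Krtap3-2 over 41.3% of its transcript, and its 2.9 implied reads in WT 1 were not whole, so their division between these genes is uncertain. The KO values of Krtap3-2 all lay above both of these WT values, as for 42 of the 52 genes. Of all genes tested, 8.05% had their KO values above both. For the 48 Krtap genes at 0 in both WT 1 and WT 2, this asks only whether each KO library had any read. The count and that share are therefore not alike in kind.

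Despite this order of levels, no Krtap gene passed the test of KO against WT. Of the 52 genes, 49 had a mean of at least 1 CPM and were tested, and Krtap19-1, Krtap19-4 and Krtap27-1 were not. At an adjusted p below 0.05 (limma, Benjamini-Hochberg over 14306 genes) 0 Krtap genes were called, against 0.014% of all genes tested, and the adjusted p of each was 0.998. At an unadjusted p below 0.05 there were again 0, where 2.88% of all genes stood. Groups that did not overlap were found for 0 Krtap genes against 7.84% of all genes. The smallest unadjusted p was 0.250, for Krtap4-1.

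The direction of the difference depended on the scale. Mean CPM was lower in KO than in WT for 52 of 52 genes, with a median ratio of 0.407 and a range from 0 to 0.768. The log2 fold change of CPM + 0.5, KO minus WT, was above 0 for 39 of the 49 genes tested and below 0 for 10, with a median of 0.95 beside -0.03 over all genes, of which 43.3% were above 0. The arithmetic mean of WT was set by WT 3, and the mean on the log scale by the zeros of WT 1 and WT 2. Fold changes ran from 2.67 (SE 2.15) for Krtap4-1, 2.57 (SE 2.37) for Krtap7-1 and 2.53 (SE 2.12) for Krtap1-4 to -1.50 (SE 1.25) for Krtap19-2. The SE ranged from 0.99 to 2.37, with a median of 1.77.

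By class, the log2 fold change was above 0 for 19 of 21 high sulfur genes (median 1.0), 13 of 17 ultra-high sulfur genes (median 0.94) and 7 of 11 high glycine-tyrosine genes (median 0.53). On chromosome 11, where it was above 0 for 19 of 22, the median was 1.56, and on chromosome 16, where it was above 0 for 13 of 18, the median was 0.91. Krtap3-2, with reads in all libraries, had a log2 fold change of 0.27 (SE 1.15). The 4 tested Krtap19 genes all lay below 0 (-1.50 to -0.56), except that Krtap19-9b lay above it when 0.1 CPM was added in place of 0.5 and all 4 did without WT 3. All 4 were at 0 in WT 1 and WT 2, so without WT 3 they could not lie below 0.

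The spread within groups was large. The residual SD on the log2 scale had a median of 2.99 over the tested Krtap genes (1.53 to 4.06) and of 0.25 over all genes. It was not particular to the family, with medians of 3.51 over the hair shaft keratins and 4.19 over the genes of the inner root sheath described further on. An SD above 2 was found for 46 of the 49 Krtap genes against 1.08% of all genes tested, and 18 of the 50 genes with the largest SD were Krtap genes. The spread was larger in WT than in KO for 49 of 49, with a median SD of 3.80 in WT and 1.67 in KO, while over all genes the medians were 0.23 and 0.22. The p-values rest on the spread between these 6 samples, each labelled as a separate replicate. They do not rest on it alone, since limma draws the spread of each gene toward a trend over all genes. For these genes the SE are therefore smaller than the residual SD alone would give.

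WT 3 decided the comparison. Without it, the log2 fold change was above 0 for 49 of 49 genes with a median of 3.19, all 3 KO values lay above both WT values for 42 of the genes tested (8.05% of all genes), and 38 were higher in KO at an unadjusted p below 0.05 (2.24% of all genes). Only Krtap15 (log2 fold change 4.43, adjusted p = 0.041) and Krtap4-1 (log2 fold change 5.53, adjusted p = 0.047, limma without WT 3) then passed the adjusted threshold, beside 0.0979% of all genes. Of the 49 genes, 45 were at 0 in both WT 1 and WT 2 and could not lie below 0 in this setting. They passed the filter on mean CPM only through WT 3 and the KO libraries. Their direction was therefore fixed in advance, and the size of these fold changes depends on the added 0.5 CPM. Of the 48 genes at 0 in both WT 1 and WT 2, the KO mean exceeded the limit of 3 reads per library (0.726 CPM) in 40. In the other 8 it was at or under that limit. Among the 40 it was at least 11.5-fold above the limit in the median, from 1.12-fold to 64.0-fold for single genes. These 40 were selected by their KO mean, so every such bound is above 1 and the median covers them only. KO 2 carries much of this. Without it the median was at least 3.35-fold in 36 genes selected in the same way (1.02-fold to 18.2-fold), and 12 genes were at or under the limit.

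Leaving out WT 1 or WT 2 instead turned the median. It became -0.18 without WT 1 and -0.17 without WT 2, with 20 genes above 0 and 29 below in each case, and 0 Krtap genes reached an unadjusted p below 0.05, against 4.03% and 2.17% of all genes. Without KO 2 the median was 0.04 and 25 genes lay above 0.

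**Figure D3:**
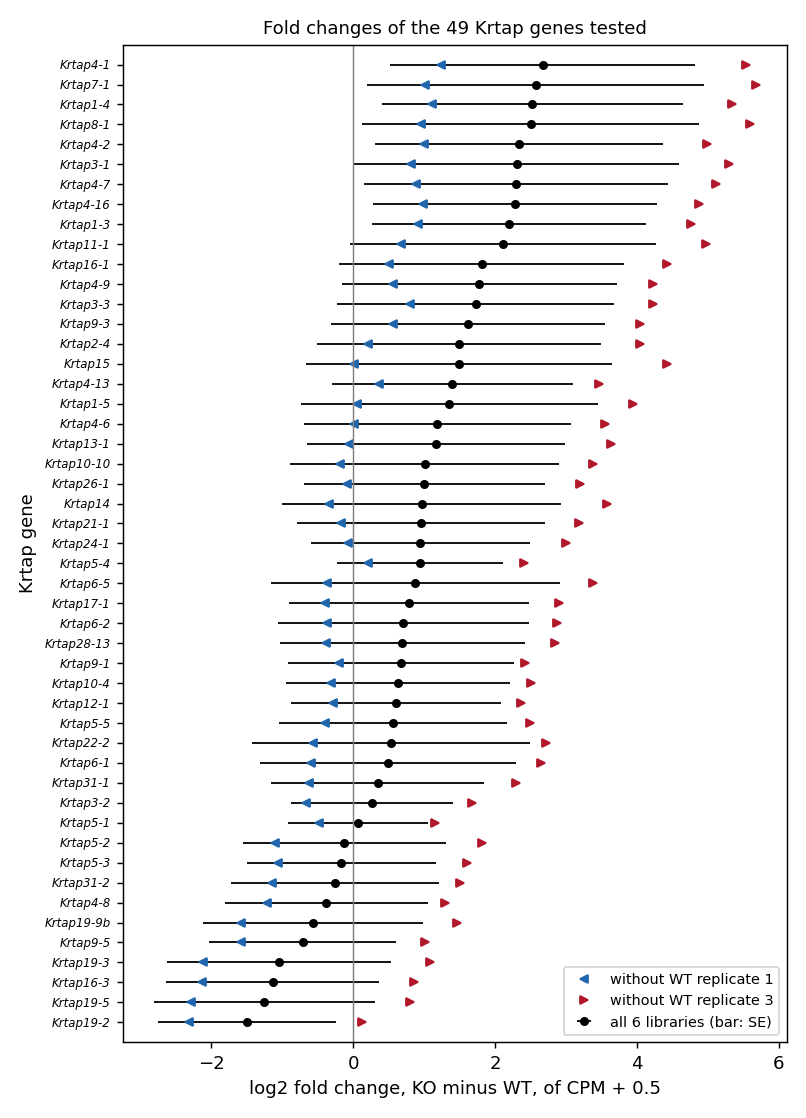
Log2 fold change (KO minus WT, of CPM + 0.5; horizontal axis) of the 49 Krtap genes tested, with all 6 libraries (black points, bars of 1 SE), without WT 1 (blue) and without WT 3 (red). All red points lie above 0, and 20 of the 49 blue points do.

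The KO mice differed among themselves, and could be set against WT 3 since it alone of the WT libraries had reads of every Krtap gene. With a single such WT library no test was possible. The summed family was at 6.14% (95% interval 5.84 to 6.44) of its WT 3 level in KO 1, 33.5% (32.5 to 34.6) in KO 2 and 3.20% (2.91 to 3.51) in KO 3, with exact intervals that cover counting error only. Per gene the medians were 5.40%, 34.6% and 2.43%. The KO libraries were thus separate beyond counting error.

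The Krtap19 genes, small glycine- and tyrosine-rich genes in a row on chromosome 16, were lower relative to WT 3 than the rest of the family in KO 1 and KO 2. Their 6 members, singled out after their values were seen, had 793 reads in WT 3 and 7, 11 and 10 reads in KO 1, KO 2 and KO 3. That is 0.812% (95% interval 0.326 to 1.68) of the WT 3 level in KO 1 and 2.36% (1.17 to 4.24) in KO 2, against 6.31% and 34.5% for the other 46 genes. In KO 3 the share was 2.25% (1.07 to 4.16) beside 3.23% (2.94 to 3.55) for the others, and these intervals overlap. Krtap19-3 was at 0, 0 and 41.9 CPM in WT mice and at 0.607, 0.280 and 0.881 CPM in KO, and Krtap19-5 was at 0, 0 and 35.1 CPM in WT mice and at 0, 0.280 and 1.18 CPM in KO. Each KO value of these 2 genes came from at most 4 reads.

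Of all Krtap reads, the Krtap19 genes made up 3.10% (2.89 to 3.32) in WT 3 but 0.410% (0.165 to 0.843) in KO 1 and 0.218% (0.109 to 0.389) in KO 2. In KO 3 they were 2.17% (1.05 to 3.96). Krtap16-3, which lies at the end of their row and resembles them in codons, had 186 reads in WT 3 and 0, 2 and 3 reads in the KO libraries, and the 0 allows up to 0.455 CPM in KO 1.

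Along chromosome 16 the levels in KO 2 differed between stretches. The 7 genes from Krtap19-1 to Krtap16-3 had a median of 0.669% of the WT 3 level in KO 2 (0 to 7.5%), and the 8 genes from Krtap22-2 to Krtap11-1 had a median of 34.7% (26.6% to 62.0%). On the other side of the row, Krtap24-1, Krtap26-1, Krtap13-1, Krtap14 and Krtap15 were at 22.3%, 29.6%, 14.8%, 14.4% and 10.04%, and Krtap27-1, with 17 reads in WT 3, had none. The 22 genes of chromosome 11 had a median of 37.9% (6.30% to 60.7%). Low shares were not limited to chromosome 16, since Krtap5-2 and Krtap5-3 on chromosome 7 were at 5.0% (1.603 to 11.9) and 7.14% (2.28 to 17.1) and Krtap9-5 on chromosome 11 was at 6.30% (1.69 to 16.6), from 4 or 5 reads each. These stretches were chosen after the values were seen.

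Krtap22-2 departed the other way. It was at 0, 0 and 47.5 CPM in WT mice and at 0.607, 29.4 and 0.588 CPM in KO. In KO 2 it stood at 62.0% (49.1 to 77.8) of WT 3, the highest share of any Krtap gene there, and in KO 1 and KO 3 at 1.28% (0.346 to 3.31) and 1.24% (0.149 to 4.51), from 4 and 2 reads. Krtap6-5, on the same side of the cluster, was at 0, 0 and 90.03 CPM in WT mice and at 2.12, 31.2 and 1.18 CPM in KO. Krtap3-2 had higher shares than the family in all 3 KO libraries, at 11.6% (9.71 to 13.8), 44.0% (38.6 to 50) and 9.16% (6.93 to 11.9). This was not particular to it. Krtap1-4 was also above the family in all 3, at 8.89%, 36.2% and 4.35%. Krtap5-4 was above Krtap3-2 in all 3, at 12.1%, 50.2% and 14.6%, but from only 8, 18 and 5 reads.

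**Figure D4:**
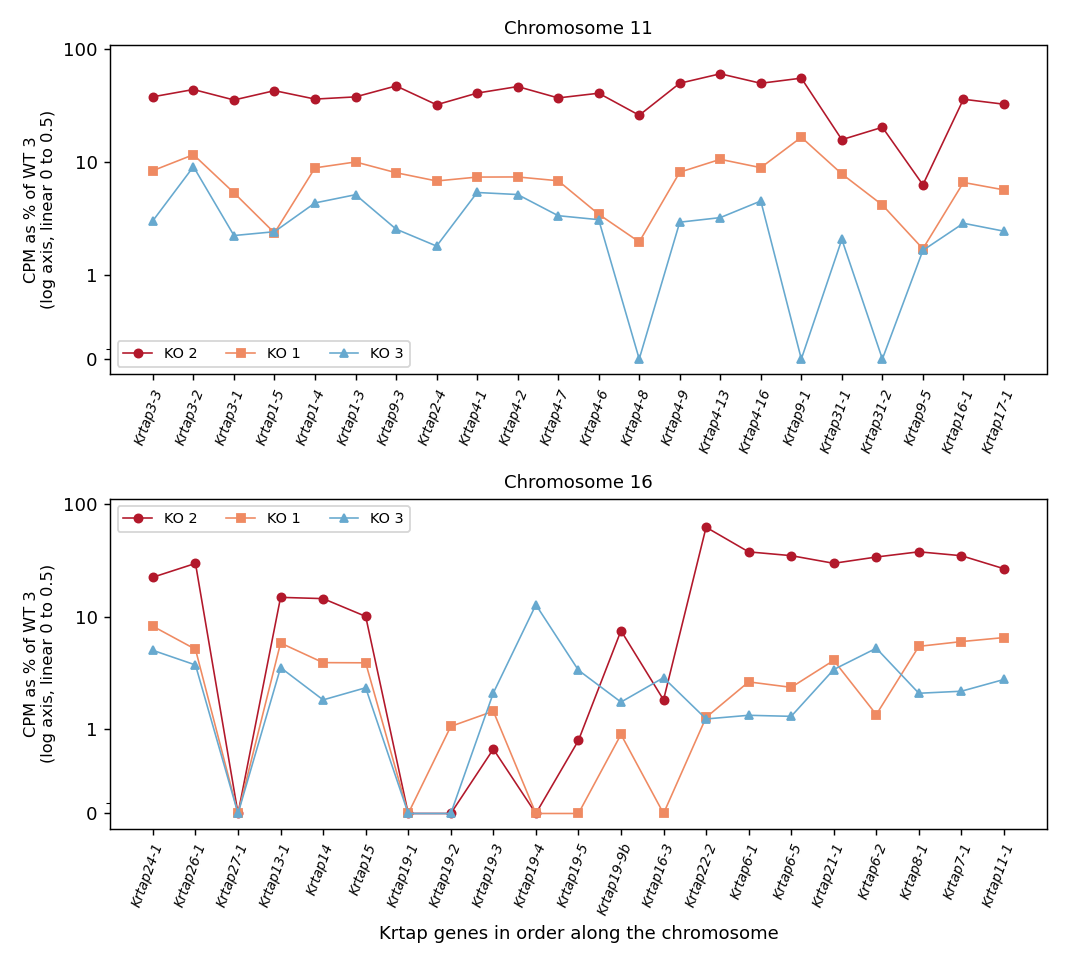
CPM of each Krtap gene of chromosome 11 (top) and chromosome 16 (bottom) in KO 1, KO 2 and KO 3 as a percent of its CPM in WT 3, on a log axis that is linear from 0 to 0.5, with genes in order along the chromosome. KO 2 runs near 37.9% on chromosome 11 and near 34.7% from Krtap22-2 to Krtap11-1, and drops to 0 to 7.5% from Krtap19-1 to Krtap16-3.

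The makeup of the family by class also differed between libraries. High sulfur genes gave 50.03% (95% interval 49.4 to 50.7) of Krtap reads in WT 3 and 53.0% (50.6 to 55.4), 45.0% (43.6 to 46.3) and 52.6% (47.9 to 57.3) in KO 1, KO 2 and KO 3. Ultra-high sulfur genes gave 25.3% (24.8 to 25.8) in WT 3 and 30.1% (27.9 to 32.3), 31.1% (29.8 to 32.4) and 30.4% (26.3 to 34.9) in the KO libraries. High glycine-tyrosine genes gave 24.7% (24.2 to 25.2) in WT 3, 16.99% (15.2 to 18.9) in KO 1, 23.9% (22.8 to 25.1) in KO 2 and 16.96% (13.6 to 20.7) in KO 3. The ultra-high sulfur share was thus above that of WT 3 in all 3 KO libraries beyond counting error, the high sulfur share was lower in KO 2, and the high glycine-tyrosine share was lower in KO 1 and KO 3.

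Other genes of the growing hair moved with the family between libraries. The 16 hair shaft keratins, which form the filaments that these proteins bind, summed to 2.18, 2.44 and 2630 CPM in WT mice and 153, 882 and 103 CPM in KO. Krt86 was at 0, 0 and 393 CPM in WT mice and 24.1, 138 and 16.3 CPM in KO, and Krt34 at 0, 0 and 338 CPM in WT mice and 20.9, 123 and 13.8 CPM in KO. WT 3 was the highest library for 15 of the 16, and none of them passed the test, while the log2 fold change was above 0 for 16 of 16 (median 1.93). As for the Krtap genes, this direction is that of the log scale, and all 3 KO sums lay below that of WT 3. The 11 genes of the inner root sheath, the layer that encloses the growing hair, summed to 260, 394 and 22904 CPM in WT mice and 2180, 9486 and 1336 CPM in KO. In WT 1 and WT 2 nearly all of that was Gata3, which was at 251 to 415 CPM in every library. Trichohyalin (Tchh) was at 7.99, 7.73 and 12906 CPM in WT mice and at 1005, 5755 and 559 CPM in KO, again in the order of the Krtap genes.

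Of 22 genes of hair shaft differentiation and its regulators, 13 had a log2 fold change above 0 and 9 below (median 0.12), and none was called. Hoxc13, a transcription factor that acts on hair keratin genes, was at 1.21, 3.46 and 67.3 CPM in WT mice and at 8.95, 30.0 and 8.81 CPM in KO. Prr9 was at 0.968, 3.87 and 839 CPM in WT mice and at 77.4, 325 and 38.8 CPM in KO. WT 3 was the highest library for 19 of the 22, but not all kept the order of the Krtap genes. Ovol1 was at 89.1, 96.8 and 121 CPM in WT mice and at 116, 90.5 and 106 CPM in KO. Lef1 was at 1.45, 2.24 and 38.9 CPM in WT mice and at 3.49, 6.165 and 4.99 CPM in KO. In all, 146 genes of the table (0.932%) were listed at 0 in both WT 1 and WT 2. Of the 108 of these that were tested, 45 were Krtap genes and 12 more were in the 3 hair lists above. Some of the rest share stretches of 50 bases with Krtap genes. Gm11562, which shares such stretches with Krtap2-4, was at 0, 0 and 150 CPM in WT mice and 6.22, 47.4 and 2.12 CPM in KO. Gm11563 and Gm10229, which share them with Krtap4-1 and Krtap6-5, reached 145 and 88.5 CPM in WT 3. Their symbols do not begin with Krtap, so they lie outside the family as taken here.

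Markers of other cells did not all keep this order. The 8 measured genes of melanocytes, which pigment the growing hair, summed to 21.3, 34.4 and 142 CPM in WT mice and to 24.3, 35.0 and 29.1 CPM in KO mice, so that WT 3 was high and KO 2 was not. Genes of proliferation summed to 972, 604 and 562 CPM in WT mice and 1186, 630 and 716 CPM in KO, and for 0 of 12 was WT 3 the highest library. Genes of follicle stem cells and the resting follicle summed to 825, 1180 and 1659 CPM in WT mice and 854, 1241 and 838 CPM in KO (4 of 9 above 0, median log2 fold change -0.11). WT 3 was highest in the last of these sums and lowest in that of proliferation.

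The epidermal keratinocyte genes that define the tissue were present throughout, at 32479 to 58423 CPM in sum. The sum was lowest in WT 3, but this did not hold for every gene, and 1 of the 11 was highest there. The sums of skeletal muscle genes, at 3798 to 7959 CPM, and adipocyte genes, at 374 to 1037 CPM, were highest in WT 3. Gene by gene, WT 3 was the highest library for 7 of 14 and 6 of 11. Their log2 fold changes were below 0 for 14 of 14 (median -0.51) and 11 of 11 (median -0.83). At an unadjusted p below 0.05 (limma), 4 of each were lower in KO, where 2.88% of all genes tested stood in either direction. The genes of neutrophils, cells that enter inflamed skin, summed to 646, 247 and 71.9 CPM in WT mice and to 241, 140 and 134 CPM in KO. This sum was lowest in WT 3, where the Krtap genes were highest. S100a9 was at 273, 69.2 and 4.62 CPM in WT mice and 80.4, 24.7 and 20.3 CPM in KO. No gene of these lists was called at an adjusted p below 0.05 by limma, and the part of such differences in the Krtap levels was not tested.

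**Figure D5:**
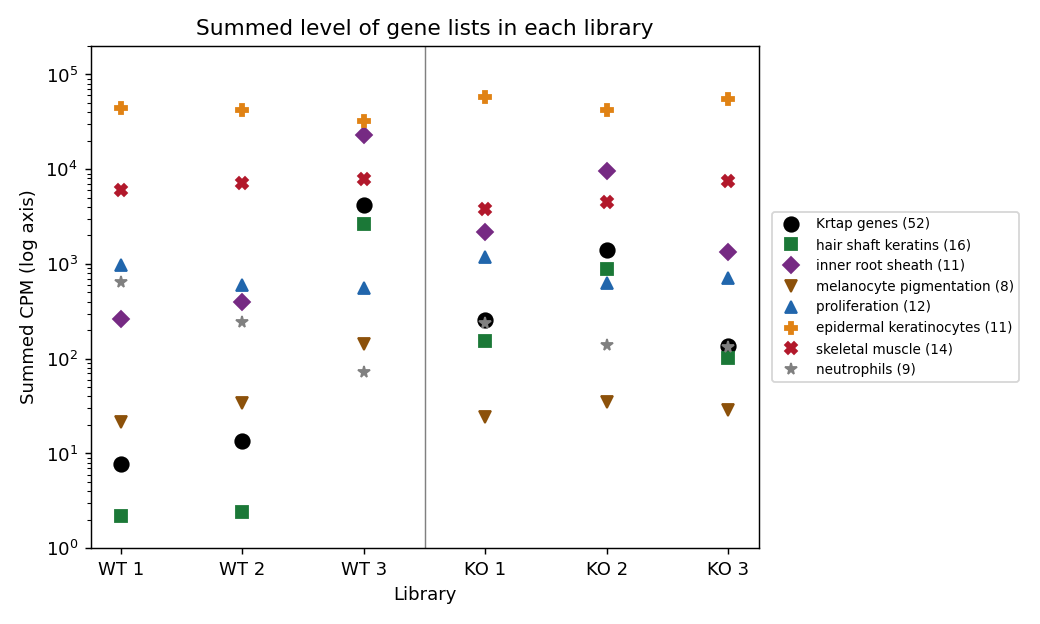
Summed CPM (log axis) of the 52 Krtap genes and of 7 lists of marker genes in each library. The hair shaft keratins and the inner root sheath genes follow the Krtap genes from WT 1 to KO 3, while the melanocyte, proliferation, epidermal, muscle and neutrophil genes do not.

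Sequence shared between copies limits single values. At least 1 stretch of 50 bases was shared with another gene by 36 of the 52, and it covered more than 50% of the transcript in 2, at 81.3% in Krtap4-13 and 60.6% in Krtap5-1. Among values under 20 reads, fractional reads were seen in 7 genes, and higher values were not counted. Krtap10-10, Krtap10-4 and Krtap12-1 lie within the span of Tspear, which was at 0.242 to 2.64 CPM, and Krtap4-13 overlaps Gm11554, which was at 0, 0 and 17.5 CPM in WT mice and at 1.07, 15.3 and 1.03 CPM in KO. Krtap10-10, Krtap12-1 and Krtap4-13 are on the same strand as the gene they overlap, and Krtap10-4 is on the opposite strand. The sources used here do not state whether strand was used in counting, and it could not tell the first 3 apart from their partners in any case, so the levels of all 4 are uncertain.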

How the data were processed

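RNA-seq of 6 ear skin punches was analysed, 3 WT and 3 KO, grouped by the genotype in their labels. The authors trimmed the reads, aligned them to mm10 with STAR (version 2.7.3a), quantified genes in Partek Flow by expectation-maximization, under which similar genes can share a read, and deposited CPM, scaled to the library total, with an offset of 0.0001. The offset was removed. Depth was taken from the CPM step of 1 read; 91.9% to 92.8% of values under 20 reads lay within 0.1 of a whole read, so reads are estimates. Total scaling sets all values relative to the other genes, and Rn45s took 7.99% to 11.4%.

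The 14306 genes whose mean reached 1 CPM (1361 did not) were compared as log2(CPM + 0.5) by limma (version 3.58.1, R 4.3.3) with a mean-variance trend, two-sided, without covariates, adjusted by Benjamini-Hochberg. The added 0.5 understates changes of low genes. An exact permutation test of 3 against 3 cannot go below p = 0.1. Intervals on reads are exact binomial (SciPy 1.17.1). The limma step was run on simulated data with known changes. Coding sequences came from GENCODE M21. RefSeq lists 56 Krtap genes, of which 52 matched the table in symbol, start and end.

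Members, lists and alternatives were chosen with earlier results of these data known. Named genes were the 4 with the highest mean in each class, the highest of each cluster, the 2 lowest, those with reads in every library, Adipoq, and abundant genes of each list. Krtap3-3, Krtap9-3, Krtap17-1, Krtap13-1, Krtap14, Krtap16-3, Krtap5-4, Hoxc13, Lef1, Gata3, Gm11562, Gm11563, Gm10229 and the Krtap19 genes were named after their values were seen. So were Tspear, Gm11554 and any other genes outside this rule. Alternatives were other pseudocounts, filters, scalings and models, the replicate number as a block, and leaving out each library. The lower bound without KO 2 was added after seeing the data.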

Additional observations from a re-analysis of the deposited data

How the results depend on the processing

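No Krtap gene passed the adjusted threshold under any alternative except that without WT 3. When each library was left out in turn, the number called ran from 0 to 2, the number higher in KO at an unadjusted p below 0.05 from 0 to 38, the number whose groups did not overlap from 0 to 42, the number with a log2 fold change above 0 from 20 to 49, and the median log2 fold change from -0.18 to 3.19. In every one of these the upper end came from leaving out WT 3, and the lower ends of the last 2 from leaving out WT 1 (WT 2 gave the same 20). Over the same omissions the log2 fold change ran from -0.43 to 3.38 for Krtap6-5, -1.06 to 2.72 for Krtap22-2, -0.67 to 1.68 for Krtap3-2, -0.38 to 2.84 for Krtap28-13, -0.40 to 2.49 for Krtap5-5, -0.18 to 3.38 for Krtap10-10, -2.32 to 0.13 for Krtap19-2, -2.12 to 1.09 for Krtap19-3, -2.28 to 0.80 for Krtap19-5, -1.58 to 1.47 for Krtap19-9b and -2.13 to 0.85 for Krtap16-3. The pseudocount moved the median from 2.32 (0.1 CPM) to 0.15 (2 CPM), turned Krtap28-13 to -0.0088 and Krtap5-5 to -0.013 at 2 CPM, and turned Krtap19-9b to 0.37 at 0.1 CPM. Under quantile normalization 1 gene, Krtap19-2, had groups that did not overlap, lower in KO. Voom on the implied reads gave a median of 1.66, and other filters and scalings gave 0.69 to 1.0. With the replicate number as a block the median was 0.95 and 0 genes were called. Same-numbered libraries correlated at 0.376, -0.306 and -0.222, and differently numbered ones at -0.382 to 0.449. These values showed no clear pairing by number, but with 3 libraries per group they cannot exclude it. At these depths a gene under 0.455 to 0.881 CPM was not detectable in a library.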
